A study of Homo sapiens with 3 samples.

Results

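Binding of HA-PSF-TFE3 was examined at the genes of 6 receptor tyrosine kinases, EPHA2, MET, EGFR, AXL, IGF1R and ERBB2, in human kidney epithelial cells. The members were the ChIP-seq peak summits inside 1 window per gene. They were chosen by their listed position, and the genes were picked with earlier results of the same lists known. The windows span the gene with flanks of about 10 kb, and that of EPHA2 reaches 43.3 kb upstream of its start. They held 67 of 44983 summits in replicate 8 and 44 of 28084 in replicate 9, a mean of 55.5 ± 16.3 (SD, n = 2). EPHA2 was the densest of the windows, with 21 and 15 summits, whereas ERBB2 held none in either library. Because the summits were picked by the same lists that are described, counts and scores are given without a test.

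The cells were HK-2, an established line derived from human proximal tubule, carrying a doxycycline-inducible HA-PSF-TFE3 construct. The fusion joins PSF, also called SFPQ, to TFE3 and carries an HA tag. The group consisted of 2 ChIP libraries, labelled 8 and 9, each from cells given 0.2 µg/ml doxycycline over 24 h. The study describes them as separate clones and also as biological replicates, so a difference between the libraries cannot be told apart from a difference between clones. A library of input DNA from cells with the same construct and doxycycline served only as the authors' background for peak calling. There was no library without doxycycline, no other fusion and no TFE3 without a partner, so the values do not compare conditions. A summit is the single base of highest enrichment in a peak, and its score is −log10 of the authors' q-value. Scores are not normalised between libraries, so each is also given as a percentile of its own list. The lists contain only peaks past the authors' threshold and hold no read depth.

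Receptor tyrosine kinases span the cell membrane, bind a ligand outside the cell and phosphorylate tyrosines inside it, which recruits the RAS–MAPK and PI3K–AKT pathways. EPHA2 binds ephrin-A ligands on neighbouring cells. MET is the receptor of hepatocyte growth factor, EGFR that of epidermal growth factor and its relatives, AXL that of GAS6, and IGF1R that of the insulin-like growth factors. ERBB2 has no known ligand of its own and acts as the dimerization partner of EGFR and other ERBB receptors. TFE3 belongs to the MiT/TFE family of transcription factors, which bind E-box sequences such as CACGTG and CATGTG. Receptor tyrosine kinases carry growth signals in the renal tubule, and MET takes part in its repair after injury.

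Positions are on hg19, the build in the labels, and are counted from 1. The lists are not on GRCh38, since 364 and 262 summits lay beyond the ends of its chromosomes. The gene annotation used here is RefSeq on GRCh38, and no position was carried from one build to the other. The start of MET, EGFR, AXL, IGF1R and ERBB2 was therefore taken as the point 10 kb inside the window. That of EPHA2, which is read from the reverse strand, was set from the other edge and the RefSeq gene length. Distances are given along the direction of transcription and are negative upstream of the start. All starts are approximate by at least 1 kb, and summits were not assigned to exons, introns or untranslated regions. As a check, the gene lengths implied by the windows differed from those of RefSeq by 0.0 kb for IGF1R, 0.4 kb for ERBB2, 0.5 kb for AXL, 0.8 kb for MET and -2.6 kb for EGFR.

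The approximate starts of EPHA2 and MET each had a summit of both libraries within 1 kb. The 250 bases before these starts are shown from RefSeq, GRCh38.p14, 5′ to 3′ on the strand of the gene. The summits of both libraries lay 0.2 kb after the approximate start of EPHA2 and 0.3 kb after that of MET. Whether any summit falls in these bases could not be read, because the builds differ. The bases lie at chr1:16156070-16156319, reverse strand, for EPHA2 and at chr7:116671946-116672195, forward strand, for MET. They are in lower case throughout because neither holds a motif searched below. Their G+C content was 63.2% for EPHA2 and 68.4% for MET.
EPHA2: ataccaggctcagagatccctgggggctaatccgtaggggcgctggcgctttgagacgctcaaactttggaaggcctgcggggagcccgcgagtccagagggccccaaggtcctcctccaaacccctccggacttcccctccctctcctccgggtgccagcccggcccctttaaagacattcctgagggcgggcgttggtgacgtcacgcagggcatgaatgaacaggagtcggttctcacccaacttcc
MET: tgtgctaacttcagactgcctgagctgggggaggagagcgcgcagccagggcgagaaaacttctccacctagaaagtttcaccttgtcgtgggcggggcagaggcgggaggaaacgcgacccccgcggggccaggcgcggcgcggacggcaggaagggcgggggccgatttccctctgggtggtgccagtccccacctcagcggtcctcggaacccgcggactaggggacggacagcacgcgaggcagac

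E-boxes (CACGTG, or CATGTG and its reverse complement CACATG) and AP-1 sites (TGAGTCA, or TGACTCA) were searched on both strands in the RefSeq promoters of all 6 genes, from 250 bases before to 50 after each start. EGFR and AXL have 2 such promoters each and the other genes 1. CACGTG is held by 7.26% of 35116 promoters, CATGTG or CACATG by 11.1%, and TGAGTCA or TGACTCA by 4.95%. Among the receptors, CACGTG was found once, at bases 4 onwards of MET. CATGTG or CACATG was found at the second start of EGFR, from base -236, and at the second start of AXL, from base -79. The second EGFR start also held TGAGTCA from base -232, which overlaps the E-box by 2 bases, and TGACTCA from base -136. No match was found in the promoters of EPHA2, IGF1R and ERBB2 or at the first starts of EGFR and AXL. Each match is shown in capitals with its flanks on a line of its own, on GRCh38.p14 and the forward strand. They lie at chr7:116672187-116672216 for MET, chr7:55109591-55109620, chr7:55109596-55109624 and chr7:55109692-55109720 for EGFR, and chr19:41226664-41226693 for AXL.
MET: gaggcagacagaCACGTGctggggcgggca
EGFR: tcctcgctttccCATGTGagtcattgctag
EGFR: gctttcccatgTGAGTCAttgctagtcag
EGFR: gtataaactttTGACTCAcaggacaaatt
AXL: acagatactcaaCACATGcacgtacacacc

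**Figure D1:**
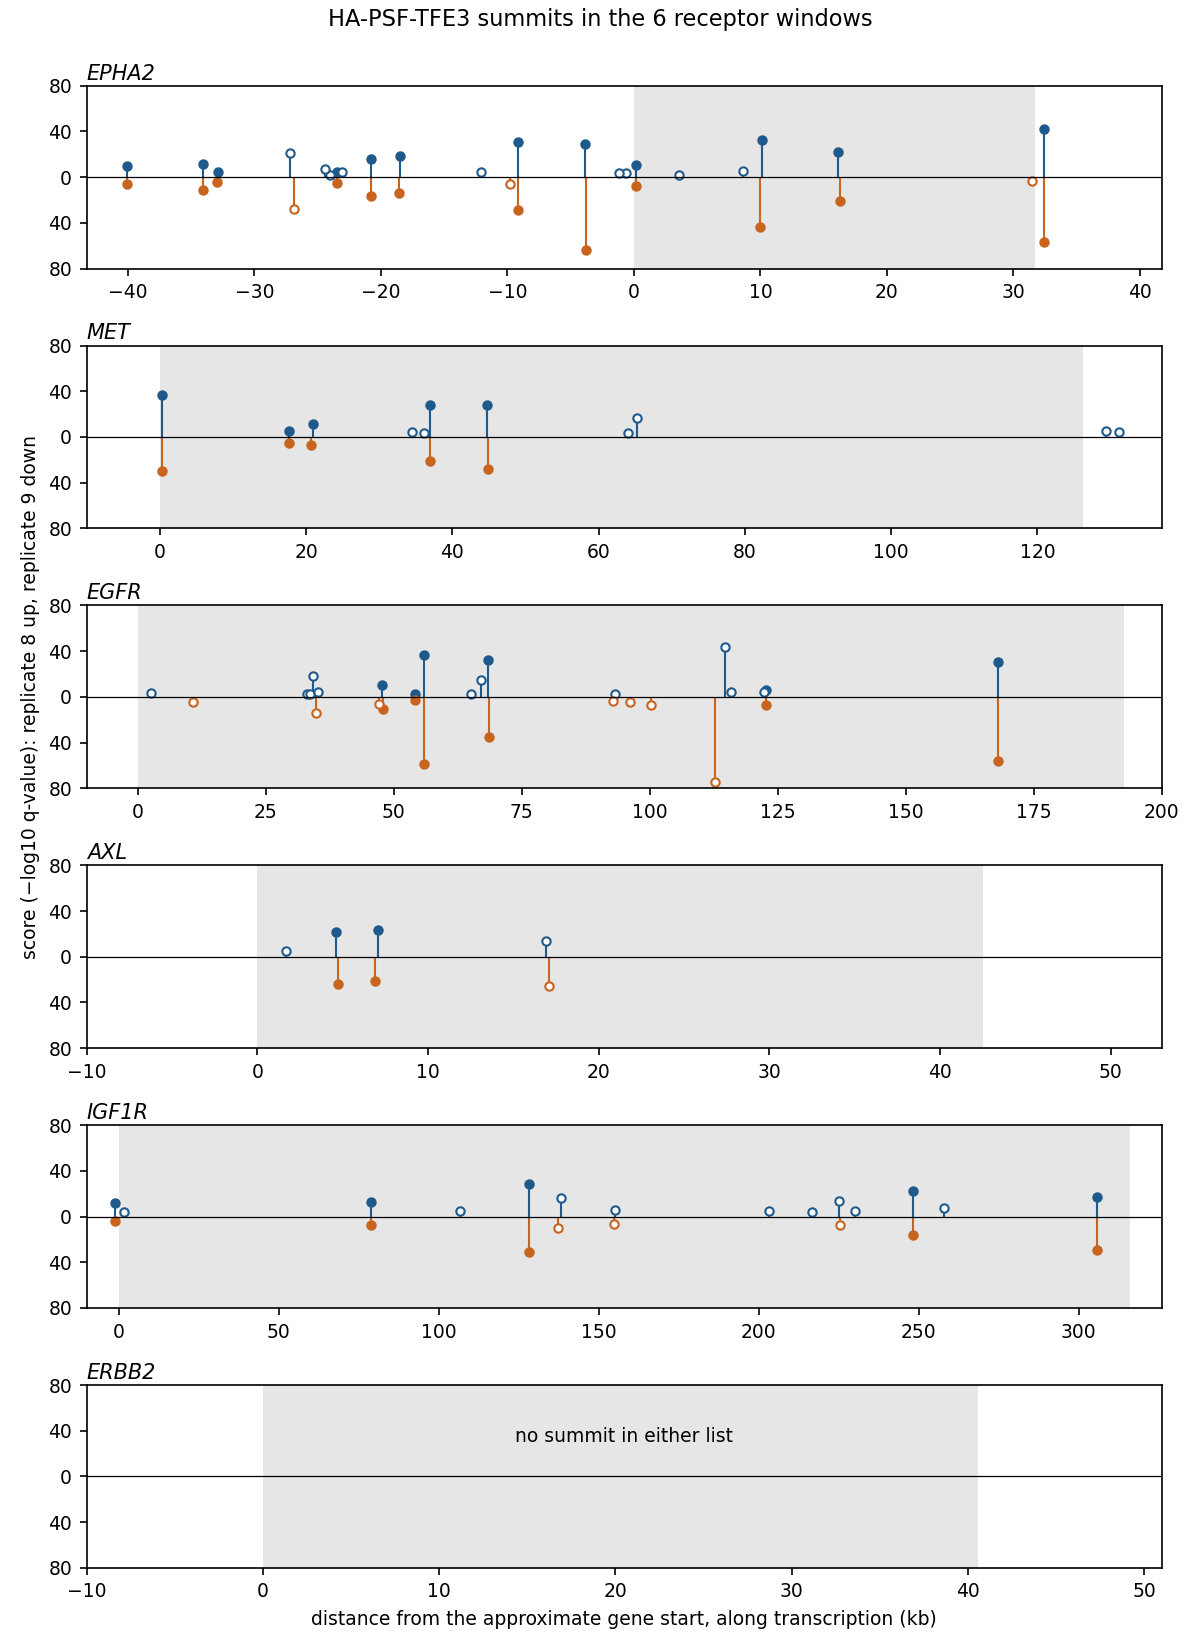
Each panel plots the summits of 1 window against the distance from the approximate gene start in kb, along the direction of transcription, with the score (−log10 q-value) of replicate 8 upward and of replicate 9 downward. Filled points are summits that the other list repeats at 200 bp or less, open points are not repeated, and grey marks the RefSeq gene length. EPHA2 has summits along 56.2 kb with no gap over 10 kb in replicate 8, MET has its strongest summit near the approximate start, and ERBB2 has none.

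At EPHA2 the summits formed a dense run that began inside the gene and went on far upstream of it. The window, chr1:16440001-16525000, held 21 summits in replicate 8 and 15 in replicate 9, a mean of 18 ± 4.24 (SD, n = 2). This was 24.7 and 17.6 summits per 100 kb, compared with 1.81 and 1.07 over chromosome 1. When the genome was cut into consecutive windows of 85 kb, assembly gaps included, 0.0167% of them (6 of 35957) held at least 21 summits in replicate 8, and 0.0278% (10 of 35957) held at least 15 in replicate 9. The fullest such window held 24 and 22. The gene was chosen with these counts known, so they are given as its rank and not as a test.

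Upstream of EPHA2, a stretch of 43.3 kb held 15 summits in replicate 8 and 10 in replicate 9, or 34.7 and 23.1 per 100 kb. Over the RefSeq gene length of 31.7 kb there were 5 and 4 summits, or 15.8 and 12.6 per 100 kb. In both libraries the upstream stretch was therefore the denser one. All but 1 of the replicate 8 summits, 20 of 21, were joined by gaps of at most 10 kb into 1 group from 16465615 to 16521848. Replicate 9 had 13 of its 15 summits in a group with nearly the same ends, 16465474 and 16521879.

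The libraries placed 12 EPHA2 summits within 200 bp of each other, at a median distance of 26 bp. The pair with the best ranks lay 32.4 kb after the start, at 16449322 in replicate 8 and 16449298 in replicate 9. This is near the 3′ end of the gene, which is 31.7 kb long in RefSeq. On which side of that end it lies is within the error of the approximate start. Its scores were 41.9 and 57.1, which are percentiles 97.8 and 96.3 of the lists. Inside the gene, 10.1 kb after the start, a pair at 16471672 and 16471693 had scores of 32.2 and 44.0. Upstream, at -3.9 kb, a pair at 16485595 and 16485575 had scores of 28.6 and 63.6, the highest EPHA2 score of replicate 9. These 3 pairs were in the highest score decile of both lists. They lie near the 3′ end, within the gene and before its start, so the strong EPHA2 summits were not gathered at one place.

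A further strong pair, at -9.2 kb, had scores of 30.8 in replicate 8 and 28.8 in replicate 9, percentiles 93.2 and 83.0. EPHA2-AS1, a long non-coding RNA gene that runs from -10.7 to 0.9 kb around the EPHA2 start in RefSeq, covers the distances of this pair and of the pair at -3.9 kb. The pair nearest to the approximate EPHA2 start, 0.2 kb away at 16481510 and 16481538, was weaker. Its scores were 10.7 and 7.54, at percentiles 60.6 and 36.1. Replicate 8 also had unpaired summits at -0.6 and -1.2 kb, with scores of 3.24 and 3.28. Which of these lies nearest to the true start is within the error of the approximate start. The other 7 pairs had scores between 3.96 and 22.3. The farthest lay at -40.1 kb, next to ARHGEF19, a gene for a guanine nucleotide exchange factor whose near end is at -41.8 kb in RefSeq.

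Of the EPHA2 summits without a partner, the strongest of both lists sat beside each other, 292 bp apart, at 16508915 in replicate 8 and 16508623 in replicate 9. Their scores were 21.0 and 27.9. The other 8 unpaired summits of replicate 8 scored from 1.60 to 7.02, and the other 2 of replicate 9 scored 3.15 and 5.91. Apart from that one place, the libraries differed at EPHA2 in summits with scores of at most 7.02. Just outside the window, beyond the 3′ end of EPHA2, summits lay 1.48 kb away with a score of 8.67 and 1.51 kb away with a score of 13.3.

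The MET window had its strongest summit near the approximate start of the gene, and its other pairs lay within the first 44.9 kb. The window, chr7:116302001-116449000, held 11 summits in replicate 8 and 5 in replicate 9, a mean of 8 ± 4.24 (SD, n = 2). These are 7.48 and 3.40 per 100 kb, compared with 1.54 and 0.948 over chromosome 7. Among consecutive windows of 147 kb, 3.11% held at least 11 summits in replicate 8 and 8.38% held at least 5 in replicate 9.

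The MET start pair lay at 116312295 in replicate 8 and 116312298 in replicate 9, 3 bp apart and 0.3 kb from the approximate start. Its scores were 36.9 and 29.5, percentiles 96.2 and 83.6. The EPHA2 pair at 0.2 kb also lay within 1 kb of its approximate start, and the EPHA2 promoter held none of the motifs searched. In the windows of EGFR, AXL and IGF1R no pair lay within 1 kb of the approximate start. The starts are approximate by at least 1 kb, so these distances do not rank the genes. MET is the only receptor here whose first promoter held CACGTG, which 7.26% of all promoters hold. Whether the summit lies on that E-box could not be read, because the builds differ. Further into MET, 37.0 kb after the start, both libraries placed a summit on the same base, 116349015, with scores of 28.4 and 21.2. A pair 44.8 kb after the start, at 116356841 and 116356931, had scores of 28.2 and 27.6. The remaining 2 pairs, 17.7 and 20.9 kb after the start, scored from 4.87 to 11.1. All 5 MET pairs scored higher in replicate 8.

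All 5 MET summits of replicate 9 recurred in replicate 8, while 6 of the 11 in replicate 8 had no partner. The strongest of these 6 lay at 116377291, 65.3 kb after the start, with a score of 16.6 at percentile 77.0. The nearest replicate 9 summit was 20360 bp away. The other 5 scored from 3.28 to 5.30, and 2 of them lay past the 3′ end of MET. From 116377291 to 116441407, a stretch of 64.1 kb, replicate 8 had no summit, and replicate 9 had none from 116356931 to the end of the window.

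The EGFR window held many summits, all of them inside the gene, with the strongest far from the start. The window, chr7:55076001-55286000, held 17 summits in replicate 8 and 13 in replicate 9, a mean of 15 ± 2.83 (SD, n = 2), or 8.10 and 6.19 per 100 kb. Among consecutive windows of 210 kb, 1.53% held at least 17 in replicate 8 and 1.20% held at least 13 in replicate 9. No summit of either list lay upstream of EGFR or past its end within the window. Outside the window, the nearest upstream summits lay at 55063015 in replicate 8 and at 55063176 in replicate 9. They were at -23.0 and -22.8 kb from the approximate start, with scores of 37.7 and 37.5. The summit nearest to the start was 2.6 kb away in replicate 8, with a score of 3.12, and 10.7 kb away in replicate 9, with a score of 4.43. Summits near the first EGFR start were thus absent or weak in both lists.

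The best EGFR pair lay 55.9 kb after the start, at 55141908 in replicate 8 and 55141899 in replicate 9. Its scores were 36.9 and 58.5, percentiles 96.2 and 96.6. A pair 168.1 kb after the start, at 55254129 and 55254038, had scores of 30.2 and 55.8, percentiles 93.0 and 96.0. Both were in the highest decile of both lists. The later one lies at the distance of EGFR-AS1, a non-coding RNA gene 160.7 to 169.9 kb after the EGFR start in RefSeq. A pair 68.4 kb after the start scored 32.0 and 35.2. The remaining 3 pairs scored from 2.68 to 10.5. All 6 EGFR pairs scored higher in replicate 9, while all 5 MET pairs, on the same chromosome, scored higher in replicate 8. These scores are not normalised between the libraries. By percentile, 3 of the 6 EGFR pairs and all 5 MET pairs were higher in replicate 8.

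The highest score of all the windows was reached by an EGFR summit that did not pair. It lay at 55198654 in replicate 9, 112.7 kb after the start, with a score of 74.6 and rank 326. The strongest replicate 8 summit of the windows lay 1935 bp away, at 55200589, with a score of 43.5 and rank 854. Each was the nearest summit of the other list, so both libraries had their strongest EGFR summit in the same region but not on the same bases. Peak widths were not used here, so whether the peaks overlap was not tested. The second EGFR start, which holds the E-box and AP-1 letters shown above, is 90.8 kb after the first in RefSeq. The nearest summits, 92.8 kb after the start in replicate 9 and 93.2 kb in replicate 8, had scores of 3.61 and 2.12.

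AXL held few summits, all in the first 17.1 kb of the gene. The window, chr19:41715001-41778000, held 4 summits in replicate 8 and 3 in replicate 9, a mean of 3.5 ± 0.707 (SD, n = 2), or 6.35 and 4.76 per 100 kb. Chromosome 19 is rich in summits, with 2.83 and 1.71 per 100 kb. Among consecutive windows of 63 kb, 7.83% held at least 4 in replicate 8 and 6.66% held at least 3 in replicate 9.

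The best AXL pair lay 4.6 kb after the start, at 41729638 in replicate 8 and 41729660 in replicate 9, with scores of 21.4 and 24.1. The other pair, at 41732075 and 41731934, had scores of 23.4 and 20.9 and lay 7.1 and 6.9 kb after the start. The second AXL start, with the CACATG shown above, is 7.53 kb after the first in RefSeq. A further AXL site, 16.9 kb after the start, just missed the distance that makes a pair. Its summits lay 218 bp apart, at 41741897 with a score of 14.0 and at 41742115 with a score of 25.5. The only other summit, 1.7 kb after the start in replicate 8, scored 4.59. Past 41742115 neither list had a summit up to the end of the window, where HNRNPUL1 follows AXL.

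At IGF1R the summits were spread thinly over the longest of the genes. The window, chr15:99182001-99518000, held 14 summits in replicate 8 and 8 in replicate 9, a mean of 11 ± 4.24 (SD, n = 2). The density was 4.17 and 2.38 per 100 kb, compared with 1.22 and 0.803 over chromosome 15. Among consecutive windows of 336 kb, 9.98% held at least 14 in replicate 8 and 12.6% held at least 8 in replicate 9.

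The best IGF1R pair lay 128.4 kb after the start, at 99320430 and 99320379, with scores of 28.7 and 30.7. A pair 305.9 kb after the start, at 99497918 and 99497860, had scores of 17.3 and 29.2, and a pair 248.3 kb after it scored 22.6 and 15.8. The pair nearest to the start lay at -1.3 kb, at 99190712 and 99190810, and scored 11.8 and 4.05, percentiles 65.2 and 11.2. That was the widest difference in percentile among the pairs of the 6 windows, and it lay at the distance of IRAIN, a non-coding RNA gene around the IGF1R start. From 99193707 to 99270953, 77.2 kb, replicate 8 had no summit, and replicate 9 had none for 80.1 kb up to 99270920. The strongest IGF1R summits without a partner, at 99330143 with a score of 15.9 and at 99329304 with a score of 10.04, were 839 bp apart.

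The ERBB2 window, chr17:37834001-37895000, held 0 summits in both libraries. Chromosome 17 as a whole had 2.83 and 1.73 summits per 100 kb. Among consecutive windows of 61 kb over all chromosomes, however, 62.7% also held none in replicate 8 and 70.8% held none in replicate 9. An empty window of this length is thus the usual case over the genome, assembly gaps and stretches between genes included. The share of empty windows on chromosome 17 or around genes was not computed. The nearest summits lay past the GRB7 side of the window, 2.25 kb outside it at 37897254 with a score of 8.36 in replicate 8, and 1.77 kb outside it at 37896774 with a score of 1.93 in replicate 9. They were 53.3 and 52.8 kb from the ERBB2 start, where RefSeq has GRB7, an adaptor of receptor tyrosine kinases, from 49.8 to 59.2 kb. On the other side the nearest were 11.9 and 27.5 kb outside. Because the lists hold only peaks past a threshold, binding below it at ERBB2 was not detectable.

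**Figure D2:**
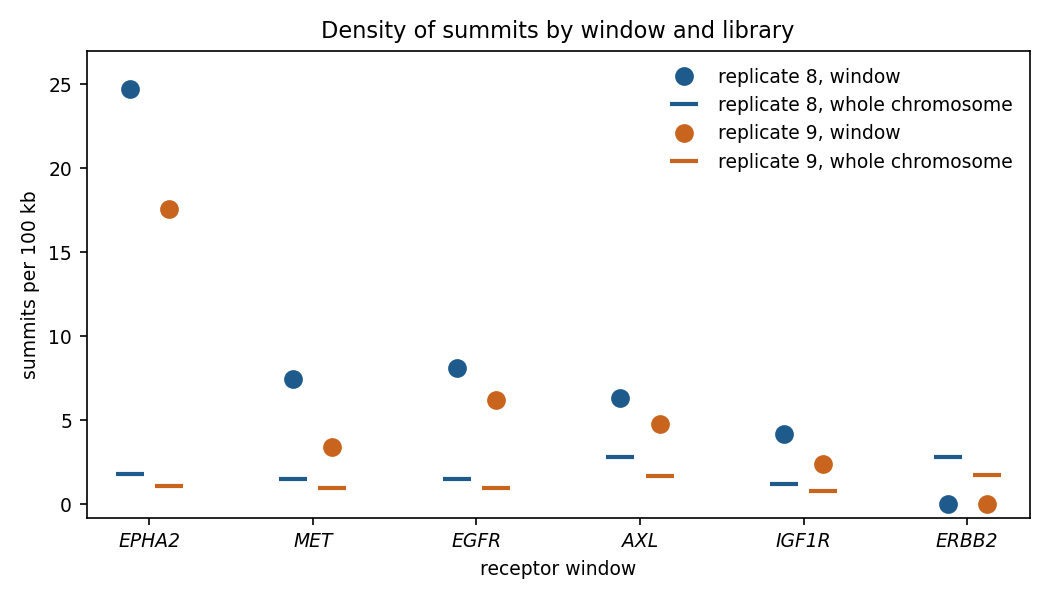
Points give the summits per 100 kb in each receptor window for replicates 8 and 9, and dashes give the same over the whole chromosome. EPHA2 stands at 24.7 and 17.6, the 4 windows from MET to IGF1R lie between 2.38 and 8.10 and above their chromosomes, and ERBB2 is at 0.

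In order of density the windows ran EPHA2, EGFR, MET, AXL and IGF1R in replicate 8, and EPHA2, EGFR, AXL, MET and IGF1R in replicate 9, with ERBB2 last in both. MET and AXL changed places between the libraries, with 7.48 and 6.35 per 100 kb in replicate 8 and 3.40 and 4.76 in replicate 9. The other neighbours kept their order within both libraries, so EGFR was above MET and AXL, and both of these were above IGF1R. The ranges over the libraries overlapped for EGFR, MET and AXL and for MET and IGF1R, and every window above 0 held fewer summits in replicate 9, the shorter list, so these ranges do not settle the order. EPHA2 did not overlap with any of them, but its window reaches 43.3 kb upstream, whereas the others have flanks of about 10 kb. Over its gene length alone EPHA2 had 15.8 summits per 100 kb in replicate 8 and 12.6 in replicate 9. Density over the gene length was not computed for the other genes. In all 6 windows together there were 7.43 summits per 100 kb in replicate 8 and 4.88 in replicate 9, compared with 1.47 and 0.919 over the whole lists. The values of the lists include assembly gaps and stretches between genes, whereas the windows are centred on genes. EPHA2 alone held 21 of the 67 summits in replicate 8 and 15 of the 44 in replicate 9.

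Recurrence between the libraries was close to that of the lists as a whole. In replicate 8, 30 of 67 summits (44.8%, exact binomial 95% interval 32.6 to 57.4%) recurred in replicate 9, that is, lay no more than 200 bp from one of its summits, compared with 47.9% of the whole list. In replicate 9 it was 30 of 44 (68.2%, interval 52.4 to 81.4%), compared with 76.6%. The intervals cover counting error only, since neighbouring summits are not independent. Both intervals include the value of the list. By gene, the shares ran from 35.3% at EGFR to 57.1% at EPHA2 in replicate 8 and from 46.2% at EGFR to 100% at MET in replicate 9. With 3 to 21 summits in a window these intervals overlap widely.

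**Figure D3:**
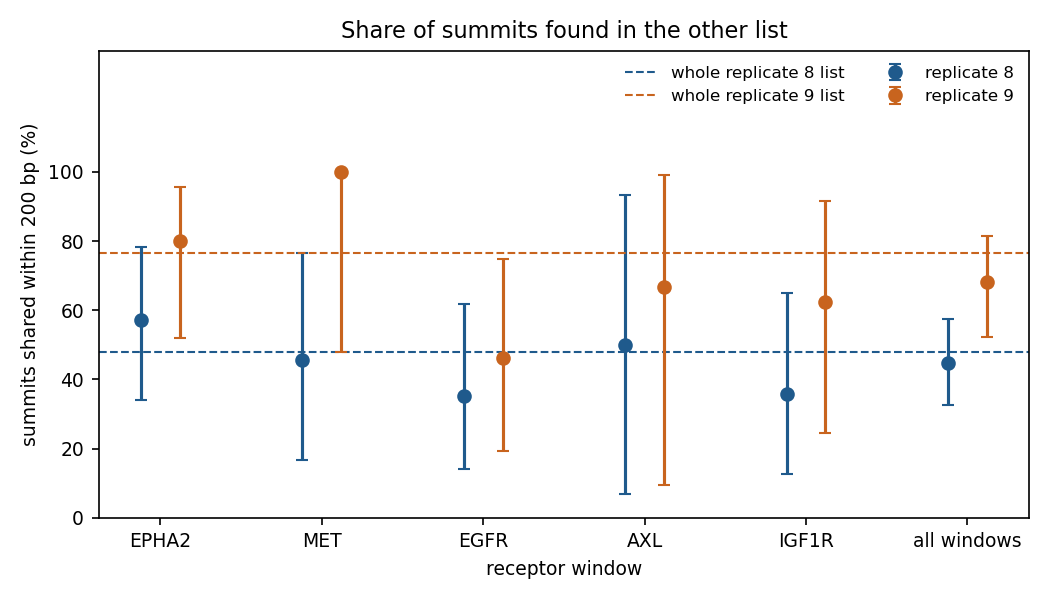
Points give the percentage of summits in each window that recur in the other list at 200 bp or less, with exact binomial 95% intervals, for replicates 8 and 9, and dashed lines give the whole lists. Within each library all intervals of the windows overlap, EGFR is lowest in both libraries, and the values over all windows, 44.8% and 68.2%, have intervals that include the lines at 47.9% and 76.6%.

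Summits that recurred scored higher than those that did not. Their median score was 20.02 against 4.59 in replicate 8 and 18.7 against 6.85 in replicate 9. This was not particular to the windows, since the medians over all pairs, 14.7 and 12.4, were also above those of the lists. The EGFR summits with scores of 43.5 and 74.6 were exceptions, since they were the strongest of the windows and had no partner. Of the summits in the highest decile of their list, 11 of 12 in replicate 8 and 5 of 6 in replicate 9 recurred, compared with 91.9% and 89.5% of all summits in those deciles. The windows held 17.9% of their replicate 8 summits and 13.6% of their replicate 9 summits in a decile that holds 10% of each list by definition. Scores of 10 or more were found for 32 of 67 (47.8%) and 25 of 44 (56.8%), compared with 41.7% and 51.6% of the lists. Median scores were 7.63 and 12.3, beside 8.20 and 10.5 for the lists. Median scores were thus below that of the list in replicate 8 and above it in replicate 9.

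The 30 pairs lay 0 to 163 bp apart, with a median of 43 bp, beside 52 bp for all 21518 pairs. Across them the scores of both libraries had a Spearman's rho of 0.92, beside 0.73 across all pairs. The points share libraries and 12 of them share the EPHA2 region, so this is a description. Of the 30 pairs, 5 were in the highest decile of both lists, 3 at EPHA2 and 2 at EGFR, compared with 9.17% of all pairs. The percentile was higher in replicate 8 for 24 of 30 pairs, compared with 74.4% of all pairs, and the score was higher in replicate 9 for 14 of 30, compared with 46.5%. By score, MET and EGFR went opposite ways, with replicate 9 higher for 0 of 5 pairs at MET and 6 of 6 at EGFR. Its score was higher for 5 of 12 pairs at EPHA2, 1 of 2 at AXL and 2 of 5 at IGF1R. By percentile, replicate 8 was higher for 5 of 5 pairs at MET and 3 of 6 at EGFR. Its percentile was higher for 10 of 12 pairs at EPHA2, 2 of 2 at AXL and 4 of 5 at IGF1R. The median ratio of the replicate 9 to the replicate 8 score was 0.942 at EPHA2, 0.801 at MET, 1.16 at EGFR, 1.01 at AXL and 0.697 at IGF1R, beside 0.952 over all pairs. The difference was not tested, because pairs of a gene share its region and libraries are the only replicates.

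**Figure D4:**
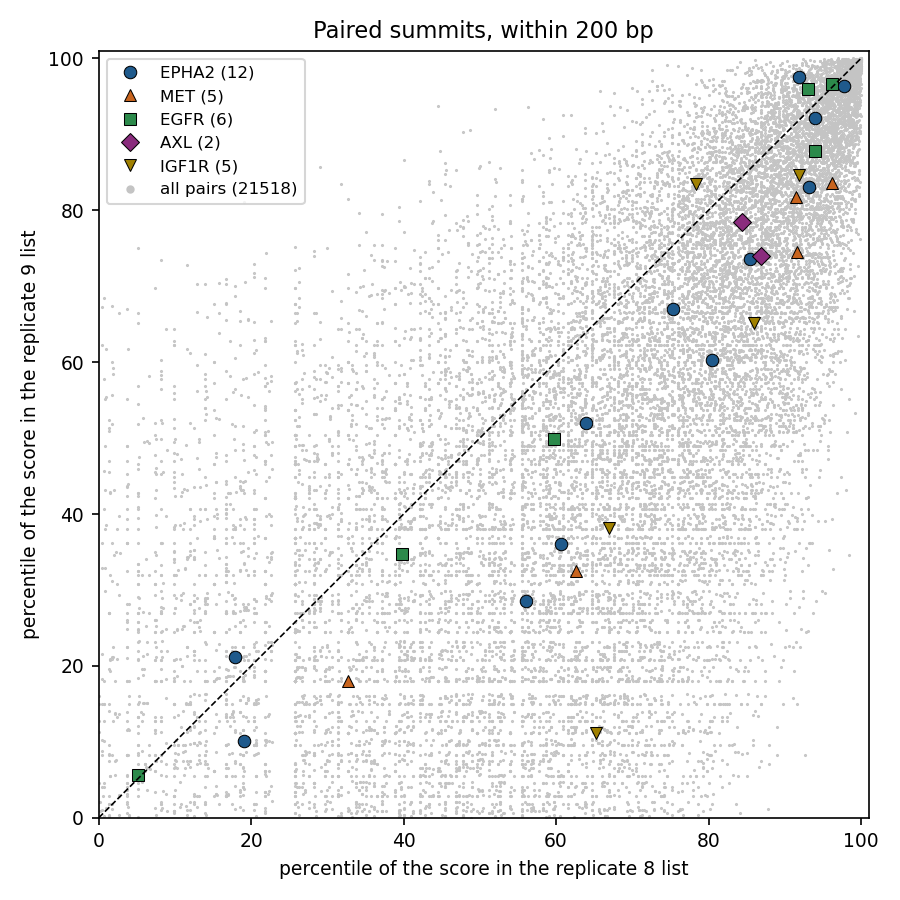
Each coloured point is a pair of summits within 200 bp in a receptor window, placed by the percentile of its score in the replicate 8 list (x axis) and in the replicate 9 list (y axis), and grey points are all 21518 pairs. Of the 30 receptor pairs, 24 lie below the dashed line of equal percentiles, and 3 EPHA2 and 2 EGFR pairs sit in the upper right corner.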

How the data were processed

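The data were 2 lists of ChIP-seq peak summits from HK-2 cells with doxycycline-inducible HA-PSF-TFE3, grouped by their labels. The authors aligned reads, hg19 per the labels, and ran MACS2 on each immunoprecipitated library against input DNA, without pooling. The study's methods also name hg38, and state both a p-value and a q-value cutoff. The deposited score was read as −log10 of the q-value, since the lowest scores, 1.37 and 1.33, lie just above 1.30, the score of a q-value of 0.05. The design text of the series names PRCC-TFE3 in place of PSF-TFE3; the labels were followed.

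Summits with their position inside the window of a gene were taken as its members. A summit was shared if the other list had one within 200 bp, and mutually nearest summits within 200 bp formed pairs. The members, windows and lists were chosen with earlier results of these data known. In each window the text gives the pair with the best worst rank, pairs in the highest decile of both lists and the strongest unpaired summits; other summits were chosen after their values were seen. Consecutive windows of equal length were cut from each chromosome up to its last summit. Other pathway genes were not located, because no hg19 annotation was used here. Alternatives were other distances, minimum scores, equal numbers of summits, merged summits, windows without flanks and each library alone. Distance functions were tested on simulated data. Tables were read with pandas 2.3.3 and intervals computed with scipy 1.17.1, under numpy 2.4.6 and Python 3.11.15; plots were drawn with matplotlib 3.10.9. The study states read numbers for its libraries; they were not used here, since the lists hold no counts from which a precision could be computed.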

Additional observations from a re-analysis of the deposited data

How the results depend on the processing

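The mean number of summits in the 6 windows was 55.5. It fell to 28.5 with a minimum score of 10 and stayed within 1.5 times its value with a minimum score of 5, equal numbers of summits, 10 kb trimmed from each window edge and merging of summits under 500 bp apart. Trimming left 33.3 kb upstream of EPHA2. With that window cut to the EPHA2 gene length, a setting chosen after seeing the data, the mean over the windows was 40 and that of EPHA2 fell from 18 to 4.50, so most EPHA2 summits lay outside the gene length. Each library on its own gave 44 or 67. The settings run for ERBB2 can only remove summits, so its count of 0 could not change under them. Of 24 values for single windows under minimum scores, equal numbers and trimming, 18 stayed within 1.5 times and 6 did not, 4 of these with a minimum score of 10. The 18 include the ERBB2 values, which were 0 and could not move.

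The share of replicate 8 summits found in replicate 9 was 23.9% within 50 bp and 59.7% within 500 bp, 62.5% with a minimum score of 5, 62.5% with one of 10, 72.2% with equal numbers of summits and 42.6% in trimmed windows. That of replicate 9 was 36.4% within 50 bp and 81.8% within 500 bp, and stayed inside its interval otherwise. By construction, a shorter distance can only lower a share and a longer one can only raise it. For the settings other than distance the cause was not tested. Spearman's rho across pairs fell from 0.92 to 0.82 with a minimum score of 10 (the cause was not tested), and was 0.90 to 0.93 within 50 or 500 bp or as Pearson's r of log10 scores. No paired analysis was possible because the 2 libraries form 1 group. The lists hold no read counts, so whether a summit found in 1 library was near the threshold in the other was not detectable.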
